A study of Mus musculus with 12 samples.

Results

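A set of bone morphogenetic protein (BMP) signalling genes was followed in whole lungs of newborn mice, 10 of the 52550 genes in the count table. They were taken by name as 4 ligands (Bmp2, Bmp4, Bmp5 and Bmp6), 4 receptors (Bmpr1a, Bmpr2, Acvrl1 and Eng) and 2 target genes (Id1 and Id3), and all 10 passed the filter on low counts that left 15885 protein-coding genes to test. The 12 libraries, 1 per mouse, came from 4 groups of 3 C57Bl/6J pups. WT mice, which carry both copies of the adrenomedullin gene Adm, received PBS or lipopolysaccharide (LPS), and Adm+/- mice, which lack 1 copy in every cell, received the same. LPS from Escherichia coli was injected into the peritoneum at 6 mg/kg once a day for 3 days, and lungs were taken on postnatal day 5, 6 hours after the last dose. The study used this exposure as a model of bronchopulmonary dysplasia, and the comparisons ask how BMP genes differ after LPS, and whether they do so alike in mice with a single copy of Adm.

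BMPs are secreted ligands of the TGF-beta family. A ligand dimer brings together type I receptors (Bmpr1a and Acvrl1, the latter also called ALK1) and type II receptors such as Bmpr2, with endoglin (Eng) as an endothelial co-receptor; the type I kinase then phosphorylates Smad1, Smad5 and Smad9, which join Smad4 and enter the nucleus. Id1 and Id3, inhibitors of basic helix-loop-helix transcription factors, are among the best known direct targets. In lung, BMP4 takes part in branching and in airway and vascular development, and inherited loss of BMPR2, ACVRL1 or ENG function is known from pulmonary arterial hypertension and hereditary haemorrhagic telangiectasia.

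Of the ligands, Bmp4 lay at chr14:46383520-46390669 on the minus strand of mm10 and Bmp5 at chr9:75775364-75900310 on the plus strand. Their upstream sequences are shown because both genes fell after LPS in both genotypes and because, by Gencode, these windows hold no exon (Bmp4) or 1 exon base (Bmp5). Each is the 250 bases before the RefSeq start in GRCm38.p6, 5′ to 3′ on the gene's own strand, chr14:46390670-46390919 for Bmp4 and chr9:75775115-75775364 for Bmp5. Capitals mark Smad binding elements, searched on both strands. The short element is CAGAC, which appears as GTCTG when it lies on the opposite strand. The first of the GC-rich elements is GGAGCC, which then appears as GGCTCC instead. The other GC-rich element is GGCGCC, which reads alike on both strands.
Bmp4: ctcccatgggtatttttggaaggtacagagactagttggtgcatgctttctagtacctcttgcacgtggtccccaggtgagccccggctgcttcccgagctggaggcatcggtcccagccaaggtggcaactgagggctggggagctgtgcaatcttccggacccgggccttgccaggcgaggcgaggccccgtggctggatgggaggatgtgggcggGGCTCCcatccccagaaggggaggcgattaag
Bmp5: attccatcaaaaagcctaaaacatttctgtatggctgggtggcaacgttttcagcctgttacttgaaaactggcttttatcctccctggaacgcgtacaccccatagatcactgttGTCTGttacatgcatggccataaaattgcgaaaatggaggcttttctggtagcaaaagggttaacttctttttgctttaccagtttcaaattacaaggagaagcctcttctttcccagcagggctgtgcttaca
The Bmp4 window held 1 GGAGCC element, its first base 32 bases before the start, and the Bmp5 window held 1 CAGAC element, 134 bases before the start. RefSeq had a promoter entry for 7 of the 10 genes (not for Bmp2, Acvrl1 and Id1), and all 7 held at least 1 of the elements. Among all 32851 RefSeq promoters of this length, 42.2% held CAGAC, 26.0% GGAGCC, 9.59% GGCGCC and 60.9% any of them.

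The libraries held between 22382535 and 38062873 counts. In 10 of them protein-coding genes took 84.3 to 87.6% of the counts, but their share was 77.8% in WT PBS replicate 5 and 80.1% in Adm+/- PBS replicate 6, where the noncoding gene Gm26917 took 16.6% and 13.3% against 5.42 to 7.40% elsewhere. These 2 libraries stood apart for most of the genes described here, so the fold changes of these genes were also fitted without them. Adm itself was low, with 3.96, 7.09 and 4.57 CPM (counts scaled to a common library size, after TMM normalisation) in WT PBS, 7.77, 8.15 and 4.46 in WT LPS, 4.58, 2.87 and 3.62 in Adm+/- PBS and 3.74, 6.28 and 3.92 in Adm+/- LPS. The groups overlapped, and the log2 fold change of Adm+/- against WT was -0.50 with PBS (SE 0.32, adjusted p = 0.999) and -0.55 with LPS (SE 0.31, adjusted p = 0.480). All 19 endothelial marker genes and all 8 markers each of type I and type II pneumocytes were detected in every group.

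LPS was first compared with PBS within each genotype. The ligands Bmp4, Bmp5 and Bmp6 fell in WT and again in Adm+/- mice, to between 0.488 and 0.630 times the PBS level. None of the other 7 genes passed the test in either genotype, and none of the 10 was called higher. A gene was called when edgeR's quasi-likelihood test gave a Benjamini-Hochberg adjusted p below 0.05 over all 15885 genes and the log2 fold change exceeded 0.5 in size. By this rule 17.6% of all genes were called in WT (7.09% lower) and 25.0% in Adm+/- (12.2% lower), and 5.85% were called lower in both, against 3 of the 10 BMP genes. The LPS lungs lay wholly below the PBS lungs for 3 of the 10 genes in WT and 4 in Adm+/-, beside 17.9% and 27.1% of all genes, and wholly above them for 0 in WT and 1 in Adm+/-, beside 18.3% and 26.6%. The median log2 fold change of the 10 genes was -0.54 in WT and -0.26 in Adm+/-, beside 0.01 and -0.01 over all genes tested. It was -0.23 and -0.07 without the 2 libraries of low protein-coding share, beside 0.01 and -0.01. The 10 genes were chosen with earlier results of these data known. These shares and medians therefore describe the 10 genes and do not test BMP genes as a set. In whole lung, fewer cells of a type and less RNA per cell cannot be told apart.

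**Figure D1:**
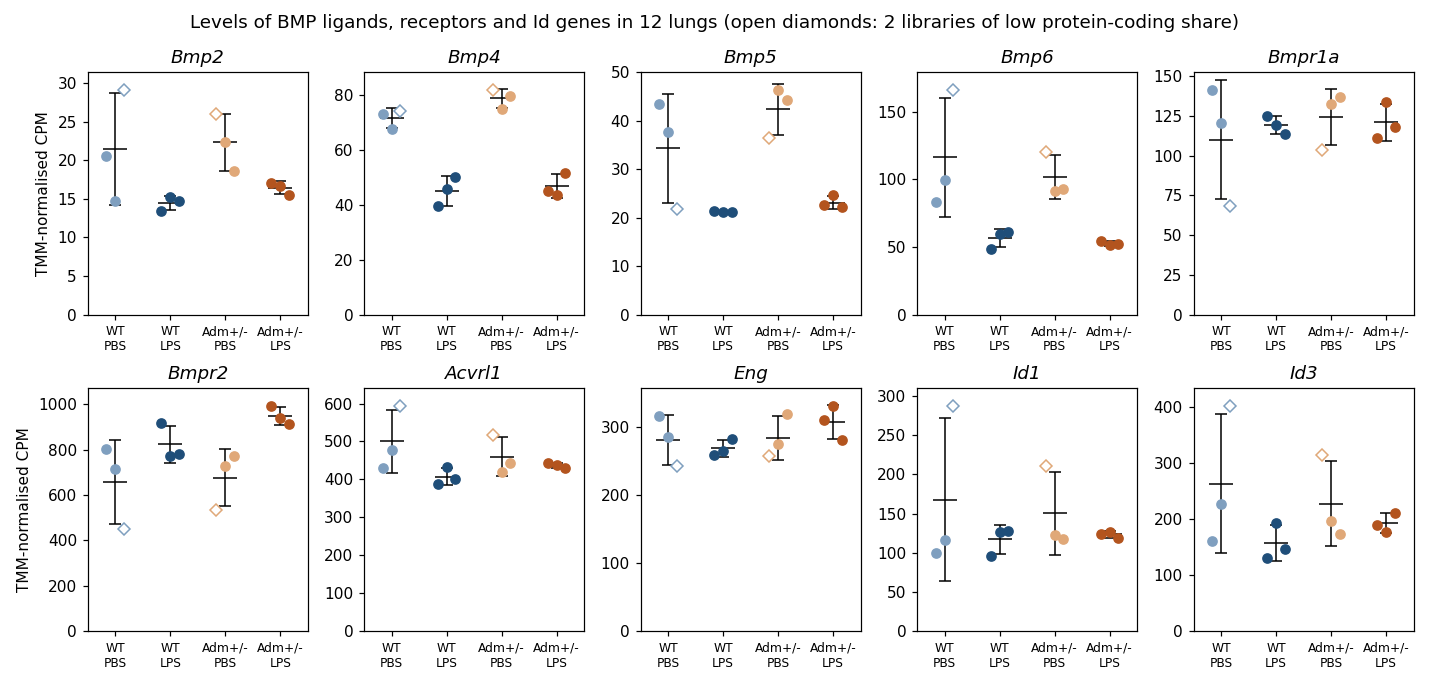
TMM-normalised CPM (linear axes from 0) of the 10 BMP genes in each of the 12 lungs, by group, with the mean and SD of 3 mice as bars; open diamonds are WT PBS replicate 5 and Adm+/- PBS replicate 6. For Bmp4 the 6 LPS lungs sit between 39.4 and 51.6 and the 6 PBS lungs between 67.4 and 81.7, while the diamonds stand apart from the other points for Id1, Id3 and Bmpr2.

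Bmp4, a ligand made by the distal epithelium and mesenchyme of the growing lung, had the smallest adjusted p of the 10 genes in both LPS comparisons with all 12 libraries. Its level was 73.0, 67.4 and 73.9 CPM in WT PBS and 39.4, 45.8 and 49.9 CPM in WT LPS, and 81.7, 74.9 and 79.4 CPM in Adm+/- PBS and 45.1, 43.4 and 51.6 CPM in Adm+/- LPS. Every LPS lung lay below every PBS lung, and both libraries of low protein-coding share lay with their own groups. The log2 fold change was -0.67 in WT (SE 0.11, adjusted p = 0.00194) and -0.75 in Adm+/- (SE 0.11, adjusted p = 0.000478). Without the 2 libraries it was -0.64 and -0.72, and the call stood in both genotypes (adjusted p = 0.00540 and 0.00133). Bmp5 and Bmp6 then had smaller adjusted p than Bmp4 in both genotypes. Gm15217 and Gm15222 overlap Bmp4 on the opposite strand.

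Bmp6 is an endothelial and haematopoietic ligand best known for setting hepcidin expression. It was measured at 83.1, 99.6 and 166 CPM in WT PBS against 48.9, 59.9 and 61.4 CPM in WT LPS, and at 121, 91.6 and 92.9 CPM in Adm+/- PBS against 54.7, 51.4 and 52.3 CPM in Adm+/- LPS. The groups did not overlap, and the highest level in each PBS group came from the library of low protein-coding share. Bmp6 had the largest fall of the 10 genes in both genotypes, with log2 fold changes of -1.04 (SE 0.22, adjusted p = 0.00752) in WT and -0.95 (SE 0.22, adjusted p = 0.00741) in Adm+/-. Without the 2 libraries the falls were -0.69 (adjusted p = 0.00351) and -0.80 (adjusted p = 0.000741), still called but smaller than those of Bmp5. With only the 6 WT libraries in the fit the WT value missed the threshold (adjusted p = 0.0535). Txndc5 and 4930579J19Rik overlap Bmp6 (chr13:38345107-38500302) on the opposite strand.

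Bmp5, a ligand close in sequence to Bmp6 and made by lung mesenchyme, varied little among the lungs of each LPS group. It measured 21.3, 21.2 and 21.2 CPM in WT LPS and 22.6, 24.6 and 22.3 CPM in Adm+/- LPS. The PBS lungs had 43.4, 37.7 and 21.7 CPM in WT and 36.4, 46.4 and 44.3 CPM in Adm+/-. The 21.7 CPM belonged to WT PBS replicate 5, the only PBS lung near the LPS level. The log2 fold change was -0.69 in WT (SE 0.20, adjusted p = 0.0320) and -0.87 in Adm+/- (SE 0.20, adjusted p = 0.00738). It was larger without the 2 libraries, -0.94 in WT (adjusted p = 0.000517) and -0.97 in Adm+/- (adjusted p = 0.000232). The WT call depended on single lungs. Leaving out WT PBS replicate 3 or 4, or WT LPS replicate 9, 10 or 11, each ended it (adjusted p up to 0.0993), and the value was smallest without WT PBS replicate 3, at -0.49. Gm47723 overlaps Bmp5 on the same strand and Gm26903 on the opposite one.

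Bmp2 (chr2:133552159-133562885, plus strand), made by endothelial and other cells, did not pass. Its level was 20.6, 14.8 and 29.1 CPM in WT PBS against 13.4, 15.2 and 14.7 CPM in WT LPS, which overlap. In Adm+/- it was 26.0, 22.4 and 18.6 CPM with PBS against 17.1, 16.7 and 15.5 CPM with LPS, which do not. The log2 fold changes were -0.57 (95% confidence interval -1.03 to -0.11, adjusted p = 0.0721) and -0.44 (-0.90 to 0.02, adjusted p = 0.133). They shrank to -0.30 (adjusted p = 0.187) and -0.32 (adjusted p = 0.130) without the 2 libraries.

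**Figure D2:**
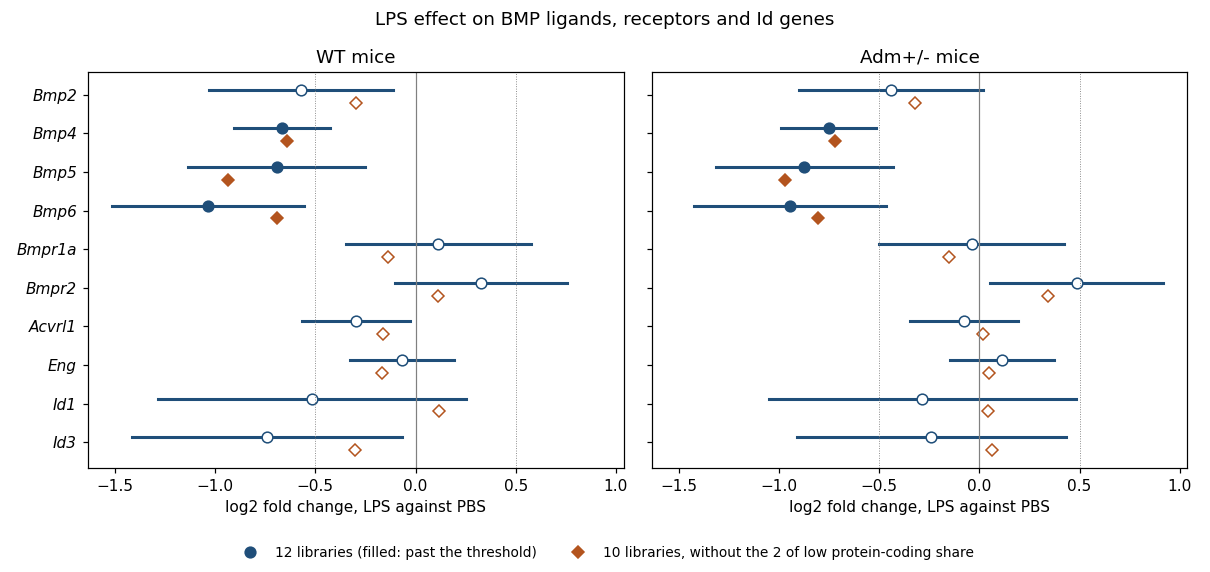
Log2 fold change of LPS against PBS in WT (left) and Adm+/- mice (right), from all 12 libraries (circles with 95% confidence intervals) and without the 2 libraries of low protein-coding share (diamonds); filled symbols passed the test, and dotted lines mark the fold limit of 0.5. Bmp4, Bmp5 and Bmp6 are filled in both panels and by both symbols.

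None of the receptors was called. Bmpr2, the main type II receptor for BMPs in lung vessels, had the highest mean CPM of the 10 genes in each group (chr1:59763400-59879014, plus strand). It measured 803, 716 and 448 CPM in WT PBS and 919, 771 and 778 CPM in WT LPS, which overlap, and 532, 727 and 770 CPM in Adm+/- PBS and 992, 938 and 912 CPM in Adm+/- LPS, which do not. The lowest 2 values were those of the libraries with low protein-coding share. The log2 fold change was 0.33 in WT (95% confidence interval -0.10 to 0.76, adjusted p = 0.249) and 0.49 in Adm+/- (0.05 to 0.92, adjusted p = 0.0821), and without the 2 libraries 0.11 (adjusted p = 0.433) and 0.34 (adjusted p = 0.0223), the last one below the fold limit.

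Bmpr1a (chr14:34410734-34503341, minus strand, overlapped by Gm17110 on the other strand), a type I receptor of wide expression, ranged from 68.5 to 141 CPM over all lungs, with group means of 110 ± 37.5 (SD, n = 3) in WT PBS, 119 ± 5.58 in WT LPS, 124 ± 17.9 in Adm+/- PBS and 121 ± 11.6 in Adm+/- LPS. The 95% confidence interval of its log2 fold change ran from -0.35 to 0.58 in WT and from -0.50 to 0.42 in Adm+/-, so changes within these limits were not excluded. Its value without the 2 libraries was -0.14 in WT and -0.15 in Adm+/- (adjusted p = 0.341 and 0.256). Acvrl1 (chr15:101128522-101145336, plus strand, overlapped by Gm16031 on the other strand), the type I receptor of endothelium, had means of 501 ± 83.6, 407 ± 22.3, 460 ± 51.5 and 436 ± 6.33 CPM in the same order of groups. Its log2 fold change was -0.30 in WT (adjusted p = 0.104) and -0.08 in Adm+/- (adjusted p = 0.675), and -0.16 (adjusted p = 0.147) and 0.02 (adjusted p = 0.871) without the 2 libraries.

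Endoglin had the smallest spread over the 12 lungs (SD 0.14 on the log2 scale). Eng measured 316, 286 and 243 CPM in WT PBS, 259, 266 and 282 CPM in WT LPS, 258, 276 and 320 CPM in Adm+/- PBS and 311, 331 and 281 CPM in Adm+/- LPS. All 4 groups overlapped. The 95% confidence intervals of the LPS effect were -0.33 to 0.19 in WT and -0.15 to 0.37 in Adm+/- on the log2 scale, which lie inside the fold limit of 0.5. The fitted values were -0.07 and 0.11, and -0.17 and 0.05 without the 2 libraries. Eng shares its locus (chr2:32646595-32682669) with Fpgs on the opposite strand and with Mir1954, Gm47291 and Gm26236 on the same strand. The Eng counts may depend on how reads there were assigned, which is not given in the sources used here.

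The target genes Id1 (chr2:152736251-152737410) and Id3 (chr4:136143497-136145755), both on the plus strand, did not pass the test, and 1 library in each PBS group set most of their spread. Id1 measured 100, 116 and 287 CPM in WT PBS, 95.7, 127 and 128 CPM in WT LPS, 211, 123 and 117 CPM in Adm+/- PBS and 124, 127 and 119 CPM in Adm+/- LPS. Without the 287 and 211 CPM of the 2 libraries, all the other 10 lungs lay between 95.7 and 128 CPM, LPS or not. The log2 fold change was -0.52 in WT (95% confidence interval -1.29 to 0.25, adjusted p = 0.306) and -0.28 in Adm+/- (-1.05 to 0.48, adjusted p = 0.578), and it turned to 0.12 (SE 0.13) and 0.04 (SE 0.12) without the 2 libraries.

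Id3 measured 160, 228 and 402 CPM in WT PBS, 131, 194 and 147 CPM in WT LPS, 314, 196 and 173 CPM in Adm+/- PBS and 190, 177 and 211 CPM in Adm+/- LPS. The LPS and PBS lungs overlapped in both genotypes, and the highest values again came from the same 2 libraries. The log2 fold change was -0.74 in WT (adjusted p = 0.105) and -0.24 in Adm+/- (adjusted p = 0.592), and -0.30 (adjusted p = 0.249) and 0.06 (adjusted p = 0.810) without them.

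The split between the 2 libraries and the other 10 ran through most of the genes. In both libraries, 5 of the 10 genes (Bmp2, Bmp6, Acvrl1, Id1 and Id3) lay above every other lung, and 3 (Bmpr1a, Bmpr2 and Eng) lay below every other lung, beside 20.9% and 18.0% of all genes tested. For Bmpr2 the 2 libraries had 448 and 532 CPM against 716 to 992 CPM elsewhere, and for Id3 402 and 314 CPM against 131 to 228 CPM. Bmp4 and Bmp5 showed neither pattern. Both libraries were PBS controls, and what set them apart was not tested.

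**Figure D3:**
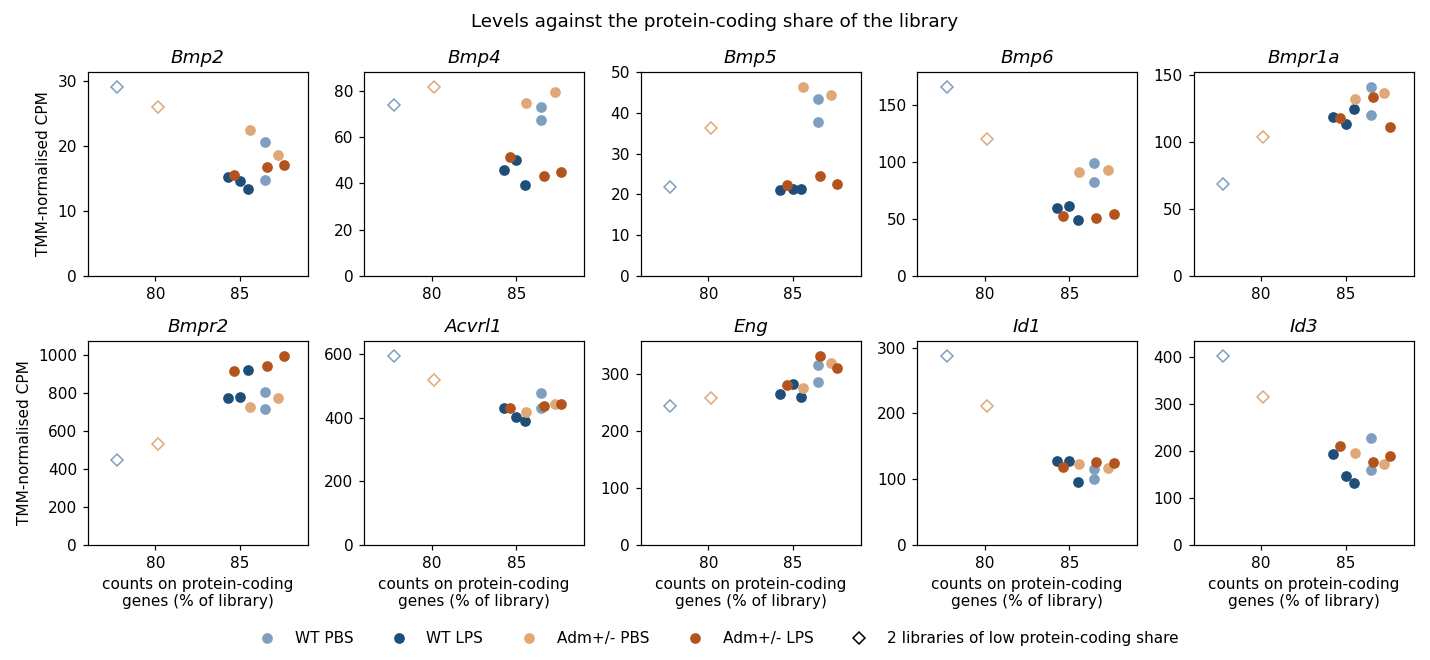
TMM-normalised CPM of each BMP gene (linear axis from 0) against the percentage of the library's counts on protein-coding genes, for the 12 lungs. The 2 libraries at 77.8% and 80.1% (open diamonds) lie above the other 10 for Bmp2, Bmp6, Acvrl1, Id1 and Id3, and below them for Bmpr1a, Bmpr2 and Eng.

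Adm+/- and WT lungs were then compared under each treatment. With PBS no BMP gene was called, as none of the 15885 genes was (0%), and the adjusted p was 0.999 for each of the 10 genes. Bmp4 was the 1 member whose groups did not overlap (74.9 to 81.7 CPM in Adm+/- against 67.4 to 73.9 CPM in WT, log2 fold change 0.14, 95% confidence interval -0.10 to 0.38), a pattern shown by 2.47% of all genes (2.51% lay wholly below WT). With LPS 2.05% of all genes were called (1.72% lower and 0.327% higher in Adm+/-) and none of the 10 was. Bmp2 and Bmp5 were the 2 members that did not overlap, both slightly above WT, where 12.2% of all genes had that pattern and 12.4% lay wholly below WT. Their log2 differences were 0.19 and 0.12, with adjusted p of 0.812 and 0.902. The smallest adjusted p was that of Eng, 0.541, at a log2 difference of 0.19 (95% confidence interval -0.07 to 0.45).

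Whether the LPS effect itself differed between genotypes was tested as an interaction, which called 0.145% of all genes. None of the 10 genes was among them, and their adjusted p lay between 0.907 and 0.996. For the ligands that fell, the difference of the log2 fold changes (Adm+/- minus WT) was -0.09 for Bmp4 (95% confidence interval -0.42 to 0.25), -0.18 for Bmp5 (-0.80 to 0.44) and 0.09 for Bmp6 (-0.58 to 0.76). Id3 had the widest of these differences, 0.50, with an interval from -0.45 to 1.45. Intervals this wide leave room for sizeable differences, above all for the Id genes, and a missed threshold does not show that the genotypes respond alike.

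Levels of different genes were compared per kilobase of annotated exon. In WT PBS lungs Id3 (147 CPM per kb), Id1 (144) and Acvrl1 (117) stood highest and overlapped, followed by Eng (69.6), whose range was apart from theirs. Bmpr2 (36.5), Bmp4 (31.8), Bmp6 (29.8) and Bmpr1a (17.3) came next, each overlapping its neighbour, and Bmp5 (8.52) and Bmp2 (6.04) were lowest. After LPS, Bmp6 stood below Bmpr1a without overlap, at 14.5 against 18.8 CPM per kb in WT and 13.5 against 19.1 in Adm+/-. In the LPS lungs Bmpr2, at 45.8 CPM per kb in WT and 52.7 in Adm+/-, was also apart from Bmp4, at 20.03 and 20.8. With PBS both genes overlapped in both genotypes, but only through the 2 libraries of low protein-coding share. Without these Bmpr2 stood at 42.2 and 41.6 CPM per kb in WT and Adm+/- PBS, apart from Bmp4 at 31.2 and 34.3. In WT PBS Bmp4 was then also apart from Bmp6 and Bmp5 from Bmp2, and Acvrl1 stood above Id1 and apart from it.

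Several of these genes are expressed by endothelial cells, so each was also set against 19 endothelial markers, as the log2 CPM of the gene minus the markers' mean log2 CPM. The marker mean itself was 0.21 lower after LPS in WT on the log2 scale (exact permutation p = 0.1) and 0.10 lower in Adm+/- (exact permutation p = 0.2), and the markers' summed level was 4680 to 5794 CPM in WT PBS, 4162 to 4302 in WT LPS, 4760 to 5446 in Adm+/- PBS and 4594 to 5063 in Adm+/- LPS. The markers moved both ways, with 0 called higher and 3 lower in WT (5 of 19 fitted above 0) and 2 called higher and 4 lower in Adm+/- (11 fitted above 0), where their median log2 fold change was 0.04. Relative to their mean, Bmp4 had a difference of -0.46 in WT and -0.66 in Adm+/-, Bmp6 of -0.77 and -0.84, and Bmpr2 of 0.58 and 0.60. The 3 LPS lungs did not overlap the 3 PBS lungs in these 6 comparisons, and the exact two-sided permutation p was 0.1 in each, the smallest that 3 against 3 allows. The share of all genes without overlap was not counted on this relative scale. On plain levels 17.9% of all genes lay wholly below and 18.3% wholly above in WT, and 27.1% and 26.6% in Adm+/-. Without WT PBS replicate 5 the WT values shrank to -0.49 for Bmp6 and 0.31 for Bmpr2, still without overlap. Relative Bmp5 had a difference of -0.42 in WT, where the groups overlapped (exact permutation p = 0.4), and of -0.77 in Adm+/-, where they did not (exact permutation p = 0.1). Without WT PBS replicate 5 its WT value was -0.73, and the groups no longer overlapped. For Bmp2, Bmpr1a, Acvrl1, Eng, Id1 and Id3 the groups overlapped in both genotypes, and without the 2 libraries they still did, except for Acvrl1 in Adm+/- (0.10 higher with LPS). Over the 30 relative values computed, no adjusted p was below 0.375. In LPS lungs, relative Bmp6 was 0.24 lower on the log2 scale in Adm+/- than in WT without overlap (exact permutation p = 0.1), while the marker mean itself was 0.15 higher (exact permutation p = 0.1) and Bmp6 alone differed by -0.10 (adjusted p = 0.934) with overlapping groups.

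**Figure D4:**
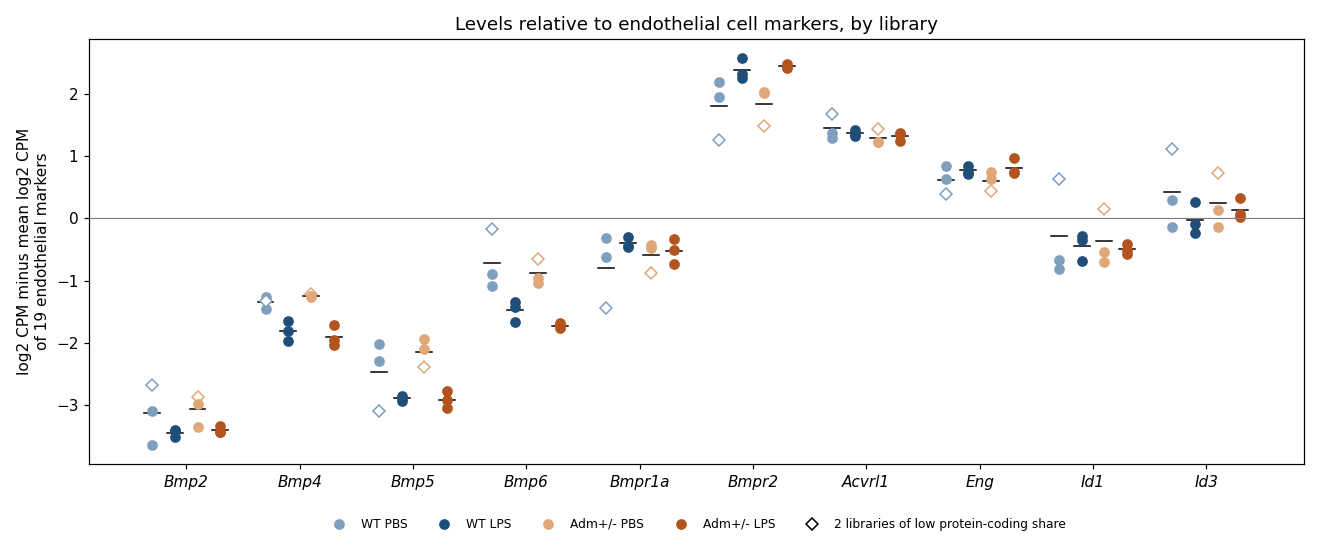
Log2 CPM of each BMP gene minus the mean log2 CPM of 19 endothelial markers, 1 point per lung and a line at each group mean; 0 is the marker mean, and open diamonds are the 2 libraries of low protein-coding share. Bmp4 and Bmp6 are lower and Bmpr2 is higher in LPS than in PBS lungs without overlap in both genotypes.

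Other cell types moved with LPS as well. All 9 neutrophil markers were called higher in both genotypes, their summed level being 59.5 to 185 CPM in WT PBS and 1696 to 2964 CPM in WT LPS, 40.7 to 68.1 CPM in Adm+/- PBS and 1605 to 1921 CPM in Adm+/- LPS. Of 8 macrophage markers, 8 were called higher in WT (1066 to 1264 CPM in all with PBS and 1642 to 2291 with LPS) and 7 in Adm+/- (1008 to 1244 and 1663 to 2200 CPM). The 12 lung fibroblast markers summed to 16883 to 45360 CPM in WT PBS and 11835 to 16331 CPM in WT LPS, and to 16310 to 29552 and 12614 to 14565 CPM in Adm+/- mice, with 3 called higher and 1 lower in WT and 2 called lower in Adm+/-. The highest sum in each PBS group came from its library of low protein-coding share, and without these the sums reached 17668 CPM in WT PBS and 17380 CPM in Adm+/- PBS. Skeletal muscle markers reached 339 to 1126 CPM in WT LPS lungs against 6.50 to 14.9 in WT PBS, 5.94 to 8.68 in Adm+/- PBS and 12.2 to 25.5 in Adm+/- LPS, and squamous epithelium markers 24.7 to 2931 CPM in WT LPS against 0.922 to 3.34, 0.716 to 1.63 and 3.10 to 39.04. Their part in the fall of Bmp4, Bmp5 and Bmp6 was not tested.

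The rest of the pathway was counted in 6 lists of 49 genes, of which 46 were tested. In WT mice 8 were called higher and 4 lower after LPS, and in Adm+/- mice 4 higher and 6 lower, beside 10.5% higher and 7.09% lower, and 12.8% and 12.2%, of all genes. Without the 2 libraries of low protein-coding share the counts were 9 and 4 in WT and 4 and 5 in Adm+/-, beside 9.90% and 5.41%, and 12.7% and 11.6%, of all genes. The median log2 fold change of the 46 genes was -0.11 in WT and 0.02 in Adm+/-, and -0.01 and 0.03 without the 2 libraries.

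Among 11 other ligands, Gdf2 and Bmp10, the circulating ligands of Acvrl1, were below the filter with means of at most 0.187 and 0.0676 CPM in any group, and Bmp15 was too. Of the 8 tested, Bmp7 (log2 fold change 0.95) and Bmp8a (1.31) rose in WT, from low means of 2.68 and 0.589 CPM to 5.15 and 1.47 CPM. Bmp8a also went from a mean of 0.531 CPM to 0.964 CPM in Adm+/-, where it was not called. In Adm+/-, Bmp3, an atypical ligand that opposes BMP signalling, fell by 1.73 on the log2 scale (adjusted p = 0.00213) and Gdf6 rose by 1.47. Bmp3 measured 47.5, 57.5 and 59.5 CPM in Adm+/- PBS against 14.7, 17.3 and 17.6 CPM in Adm+/- LPS, without overlap. Its WT mean was also lower with LPS, 28.1 CPM against 49.0 CPM with PBS, but the groups overlapped and it was not called. Without the 2 libraries the WT log2 fold change of Bmp3 was -0.97 (adjusted p = 0.0723). Gdf6, at means of 0.834 CPM in Adm+/- PBS and 2.35 CPM in Adm+/- LPS, lost its call without the 2 libraries (1.32, adjusted p = 0.0999).

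Of 7 other receptors and co-receptors, Bmpr1b (0.88), Rgma (0.67) and Hfe2, the hemojuvelin gene (2.22), rose in WT and none was called in Adm+/-. Hfe2 was at 10.02, 12.1 and 7.93 CPM in WT LPS and at most 2.83 CPM in every other lung. The same WT LPS lungs held the skeletal muscle markers, which include tissue known to express Hfe2; the part of muscle in this value was not tested. Of the Smads, none was called in WT. In Adm+/- Smad1 rose from 50.5, 53.7 and 61.1 CPM to 115, 115 and 105 CPM (log2 fold change 1.02, SE 0.15, adjusted p = 0.000522) and Smad9 fell by 0.58. In WT, Smad1 was at 54.5, 66.7 and 60.7 CPM with PBS and 90.5, 74.8 and 58.4 CPM with LPS (log2 fold change 0.30, adjusted p = 0.167), and the difference between the genotypes did not pass (0.72, adjusted p = 0.386).

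Bambi, a decoy receptor that blunts BMP and TGF-beta signals, fell in both genotypes. It went from 33.3, 28.0 and 56.1 CPM to 17.4, 23.8 and 23.7 CPM in WT (log2 fold change -0.85, adjusted p = 0.0281) and from 47.7, 38.1 and 31.6 CPM to 20.7, 21.5 and 20.3 CPM in Adm+/- (-0.91, adjusted p = 0.0149). Without the 2 libraries the WT value was -0.51 (adjusted p = 0.0422), at the fold limit, and the Adm+/- value -0.74 (adjusted p = 0.00499). Smad6 and Smad7, inhibitory Smads that BMP signals induce, were not called, at -0.75 and -0.46 in WT and -0.59 and -0.41 in Adm+/-. These values shrank to -0.13 and -0.08 in WT and to -0.22 and -0.18 in Adm+/- without the 2 libraries. Like Id1, both genes were highest in WT PBS replicate 5 and Adm+/- PBS replicate 6, Smad6 at 479 and 343 CPM against 129 to 207 CPM elsewhere, and Smad7 at 339 and 273 CPM against 137 to 187 CPM. The Smurf ubiquitin ligases were not called.

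The 17 extracellular antagonists and modulators moved both ways, 3 higher and 3 lower in WT and 2 higher and 2 lower in Adm+/-. Follistatin (Fst), which binds activins and BMPs, rose in both genotypes, from 1.94, 2.43 and 2.53 CPM to 8.07, 7.57 and 7.96 CPM in WT (log2 fold change 1.78, adjusted p = 0.000237) and from 2.16, 2.33 and 1.47 CPM to 7.26, 5.82 and 5.95 CPM in Adm+/- (1.67, adjusted p = 0.000159). Kcp, an extracellular modulator, fell by 1.15 in WT and by 1.17 in Adm+/- on the log2 scale (-0.79 and -1.03 without the 2 libraries). Fstl1, the most abundant of the list, went from a mean of 1073 CPM to 744 CPM in WT, where it fell by 0.53 on the log2 scale (just past the fold limit, and at -0.50 just short of it without the 2 libraries). In Adm+/- Fstl1 was not called, though every LPS lung (729 to 971 CPM) lay below every PBS lung (1025 to 1114 CPM). Sost fell in both genotypes from low levels, with group means of 2.37 CPM and 0.219 CPM in WT and 0.929 and 0.130 CPM in Adm+/-. The WT PBS mean rested on WT PBS replicate 5 (5.07 CPM, against 1.28 and 0.777 CPM), and the WT log2 fold change went from -3.42 to -2.27 without the 2 libraries. Fstl3 in Adm+/- (0.63, adjusted p = 0.00297) and Chrd (0.61, adjusted p = 0.0338) and Cer1 (-1.66, adjusted p = 0.0402) in WT were called only without the 2 libraries. Chrdl1 and Sostdc1 rose in WT, and Chrdl2 rose in Adm+/-, to means of 2.61, 1.97 and 0.704 CPM. Chrdl2 was also higher without overlap after LPS in WT (0.416 to 0.555 CPM against 0.0618 to 0.291 CPM) but was not called there. Of 5 other target genes, only Id4 was called, in Adm+/- mice (-0.50, adjusted p = 0.0237), and it fell just short of the fold limit without the 2 libraries (-0.47). In WT Id4 was short of the fold limit (-0.46, and -0.33 without the 2 libraries), though every LPS lung lay below every PBS lung. Id2 and Tmem100 were higher in every LPS lung than in every PBS lung of their genotype but were not called (adjusted p from 0.0634 to 0.268). These were 2 of the 5 genes in each genotype, beside 18.3% of all genes in WT and 26.6% in Adm+/-. Id4 was the 1 gene of the 5 that lay wholly below, beside 17.9% and 27.1% of all genes.

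**Figure D5:**
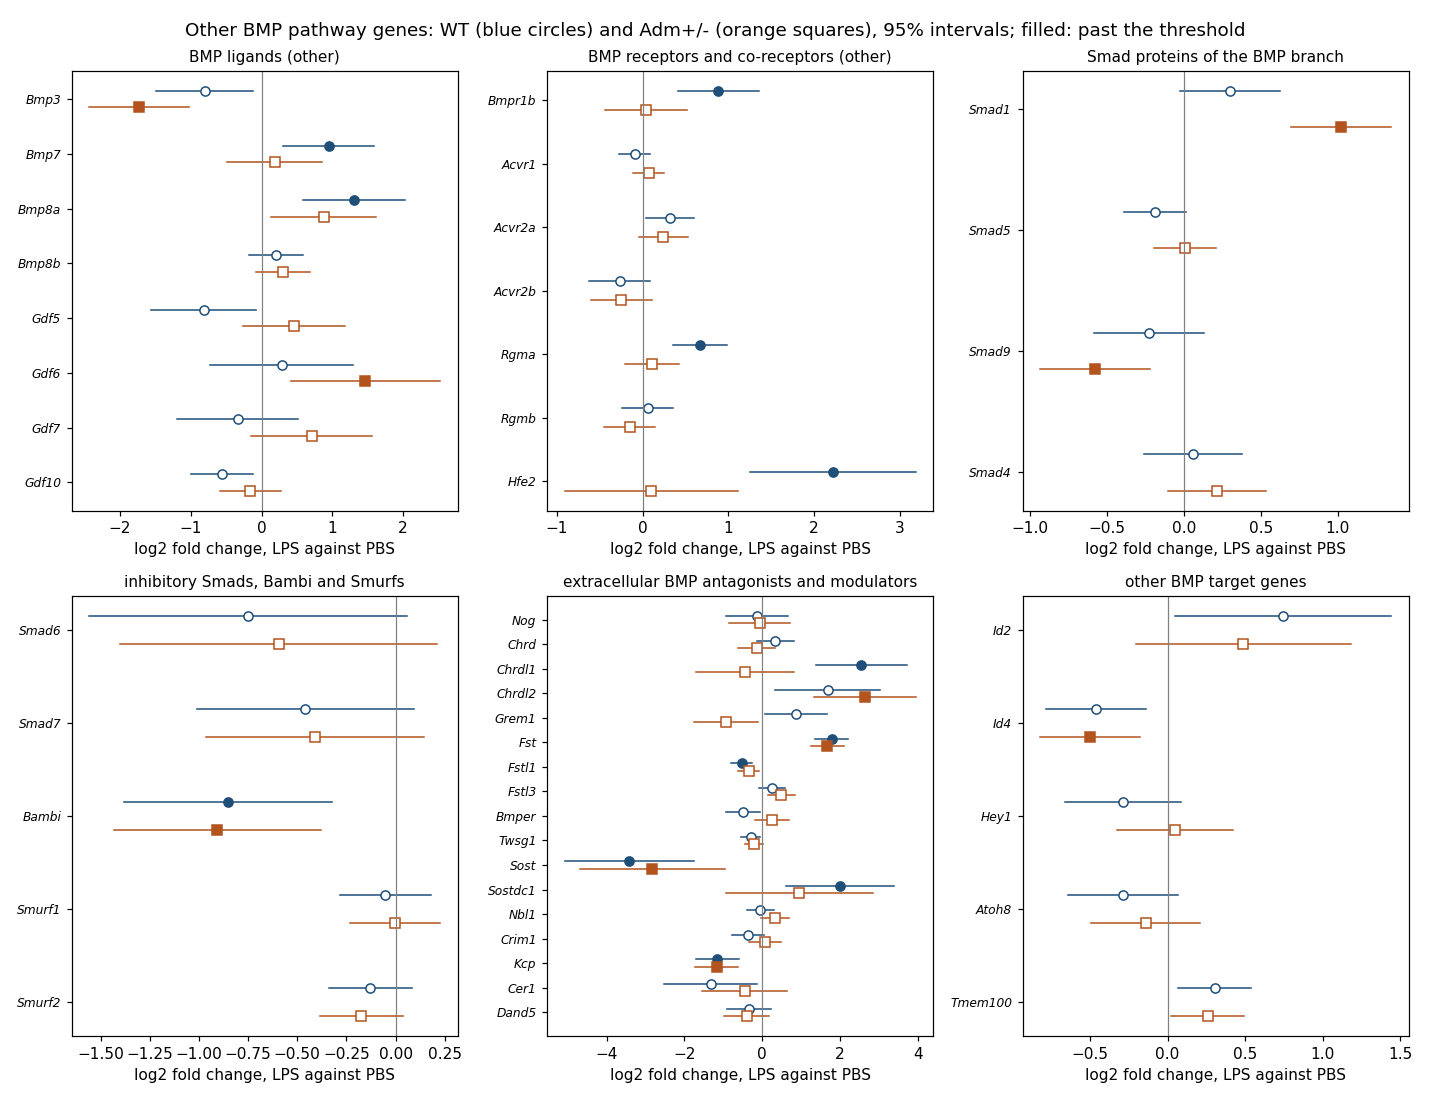
Log2 fold change of LPS against PBS with 95% confidence intervals for the 46 other BMP pathway genes tested, in 6 panels by role (the horizontal scales differ), for WT (blue circles) and Adm+/- mice (orange squares); filled symbols passed the test. Bambi, Fst, Sost and Kcp are filled in both genotypes.

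Between the genotypes in LPS lungs, 3 of the 46 genes were called, beside 2.05% of all genes (1.72% lower), and all 3 were lower in Adm+/-: Rgma (-0.78, adjusted p = 0.0199), Hfe2 (-2.57, adjusted p = 0.0148) and Chrdl1 (-2.70, adjusted p = 0.0255). All 3 were higher in WT LPS than in the other groups, in the lungs that held the skeletal muscle markers, whose part was not tested. Without the 2 libraries 6 were called, all lower, with Bmp7, Bmpr1b and Chrd added, beside 3.40% of all genes (2.53% lower). The interaction called none of the 46.

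The profile of each gene over the 12 lungs was last compared with that of every other gene tested, as the root mean square difference of log2 CPM after each gene was centred on its own mean. Bmp4 lay nearest to Prr5l (0.08) and Vangl2 (0.09), Bmp5 to Ptpn4 (0.12) and P2ry14 (0.13), and Bmp6 to Smo (0.08) and Tspan17 (0.08). Bmp2 lay nearest to B3gnt9 (0.09) and Slc26a10 (0.11). Bmpr1a was nearest to Pbrm1 (0.05) and Arpp19 (0.05), Bmpr2 to Med13 (0.05) and Dopey1 (0.06), Acvrl1 to App (0.04) and Lamb1 (0.04), and Eng to Kat6a (0.05) and Phykpl (0.06). Id1 was nearest to Ppp1r16a (0.11) and Tomm22 (0.12), and Id3 to Zfp428 (0.11) and Col5a2 (0.11). Among the 10 genes the closest pair was Id1 and Id3 (0.19), then Bmpr1a and Eng (0.20), and the most distant was Bmp6 and Bmpr2 (0.85). All profiles share the 12 libraries, including the 2 of low protein-coding share, so these distances also hold what sets those libraries apart.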

How the data were processed

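RNA from whole lungs was made into rRNA-depleted directional libraries, 1 per mouse, and the authors deposited raw read counts per gene. Per the labels and the study's methods, reads were trimmed with Trim Galore, aligned to mm10 with HISAT2 and counted with featureCounts against Gencode genes; the release and the strand setting are not given in the sources used here. Of the 52550 genes, 52403 (99.7%) were found in Gencode M21, which gave positions and exon lengths.

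Counts of the 12 libraries were normalised by TMM and fitted together in edgeR 4.0.16 (R 4.3.3), with 1 coefficient per group and 8 residual degrees of freedom, over 15885 protein-coding genes past filterByExpr. The quasi-likelihood F-test gave 5 contrasts with Benjamini-Hochberg adjustment over all of these genes. Log2 CPM used a prior count of 2. Levels relative to endothelial markers were tested by exact permutation of 3 against 3 lungs (20 assignments, smallest p 0.1). The fit was tested on simulated data. Alternatives were RLE scaling, DESeq2 1.42.0, limma-voom (limma 3.58.1), other filters, all annotated genes, only the 6 libraries of a comparison, no fold limit, and leaving out libraries; the pathway counts, medians, marker sums, relative levels and level order without the 2 libraries were added after seeing the data.

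The 10 genes and all lists were chosen with earlier results of these data known. Genes named are the 10 genes, Adm, pathway genes that passed in an LPS contrast or were the most abundant of their list, and the 2 nearest profiles of each gene; Id2, Tmem100, Smad6, Smad7, the Smurfs, Gdf2, Bmp10, Bmp15, Chrd, Fstl3 and Cer1 were named from the lists after their values were seen. 1 gene of the antagonist list is not reported here and is in none of the counts of the lists. Hjv was found as Hfe2 through RefSeq synonyms. None of the 12 pairs of libraries within a group was a duplicate: the chi-square of their counts per degree of freedom was 16.0 to 177. P-values of the fit measure the spread between mice within groups, pooled over the 4 groups of 3. A library can therefore also affect the p-values of comparisons that it is not part of. Whether mice shared a litter is not given in the sources used here. Counts show totals of 22382535 to 38062873 per library, and their intervals cover the spread between mice and counting error only.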

Additional observations from a re-analysis of the deposited data

How the results depend on the processing

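Of the calls that carry the report, the fall of Bmp4 in WT and those of Bmp4, Bmp5 and Bmp6 in Adm+/- stood under every alternative run. For Bmp4 in WT the values lay between -0.75 and -0.58 with adjusted p up to 0.0322. The WT call of Bmp5 was lost with only the 6 WT libraries (adjusted p = 0.130) and without any 1 of 5 libraries, while it stood without WT PBS replicate 5 (-0.94 to -0.49 over all 6 fits without 1 library), and that of Bmp6 with only the 6 WT libraries (adjusted p = 0.0535; -1.23 to -0.69 without 1 library). That fit left 1 of the 10 genes called in WT and 1152 of all genes. Bmp2 in WT passed with DESeq2 (-0.57, adjusted p = 0.0431) and without WT PBS replicate 4 (-0.78, adjusted p = 0.0144), and Id3 in WT passed without WT PBS replicate 3 (-1, adjusted p = 0.0320). Between genotypes with LPS, 803 genes were called with DESeq2 and 548 without the 2 libraries of low protein-coding share, and for the difference between responses 168 with DESeq2 and 1 with limma-voom. Leaving out 1 library gave 1443 (without WT LPS replicate 9) to 3074 genes called for LPS in WT, 81 to 550 between genotypes with LPS and 5 to 65 for the difference. The causes were not tested.

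Without both libraries of low protein-coding share, signs turned to -0.14 for Bmpr1a and 0.12 for Id1 (LPS in WT), 0.018 for Acvrl1, 0.042 for Id1 and 0.065 for Id3 (LPS in Adm+/-), 0.0199 for Bmp6, -0.017 for Bmpr2, -0.014 for Eng and 0.16 for Id1 (genotype with PBS), and -0.0199 for Bmp2, -0.11 for Bmp6 and -0.073 for Id1 (difference). With all annotated genes Eng was -0.00539 (genotype with PBS), and without the 5 most abundant endothelial markers relative Acvrl1 was -0.0022 (LPS in Adm+/-). None of these was called in either fit.

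Leaving out 1 library at a time also turned signs. LPS in WT ranged from -0.14 to 0.33 for Bmpr1a, -0.17 to 0.021 for Eng and -0.78 to 0.12 for Id1, and LPS in Adm+/- from -0.16 to 0.033 for Bmpr1a, -0.14 to 0.0093 for Acvrl1, -0.44 to 0.034 for Id1 and -0.41 to 0.056 for Id3. Genotype with PBS ranged from -0.15 to 0.33 for Bmp2, -0.39 to 0.15 for Bmp6, -0.073 to 0.40 for Bmpr1a, -0.17 to 0.22 for Bmpr2, -0.22 to 0.018 for Acvrl1, -0.084 to 0.10 for Eng, -0.48 to 0.48 for Id1 and -0.51 to 0.23 for Id3. Genotype with LPS ranged from -0.031 to 0.13 for Bmp4, -0.054 to 0.0800 for Bmpr1a and -0.046 to 0.15 for Id1. The difference ranged from -0.14 to 0.34 for Bmp2, -0.38 to 0.068 for Bmp5, -0.25 to 0.28 for Bmp6, -0.37 to 0.10 for Bmpr1a, -0.012 to 0.38 for Bmpr2 and -0.39 to 0.55 for Id1. Relative to the endothelial markers, LPS in WT ranged from -0.15 to 0.037 for Acvrl1 and -0.42 to 0.30 for Id1, and LPS in Adm+/- from -0.077 to 0.17 for Bmpr1a, -0.30 to 0.12 for Id1, -0.29 to 0.14 for Id3 and -0.014 to 0.098 for Acvrl1. Relative genotype values with LPS ranged from -0.00097 to 0.16 for Bmpr2, -0.18 to 0.019 for Id1, -0.091 to 0.0402 for Bmp5 and -0.033 to 0.085 for Eng.

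No paired analysis was possible because the library numbers are not shared between groups.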
